A study of Caenorhabditis elegans with 6 samples.

Results

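The genes described here encode intermediate filament proteins of the epidermis, the gut, the pharynx and the excretory canal of Caenorhabditis elegans. They were taken by their symbols in the deposited tables, as ifa-1, ifa-3, ifa-4, ifb-1, ifb-2, ifc-1, ifc-2, ifd-1, ifd-2 and ifp-1, which are 10 of 46589 genes listed. The tables describe each of them as an intermediate filament protein except ifa-4, which is entered as protein IFA-4. RNA came from whole animals of the wild-type strain Bristol N2, collected as adults 5 days after L4, which is the final larval stage. By their labels 3 libraries are controls and 3 come from worms given bcat-1 RNAi, here called the RNAi-labelled libraries, and what the controls ate is not stated there. According to the methods, worms ate E. coli HT115 that make double-stranded RNA from young adulthood on, and progeny were washed off daily. The paper titles its list of differing genes as control RNAi against bcat-1 RNAi, and its other RNAi assays used a control vector. The comparison asks which transcripts differ after interference with bcat-1, which encodes an enzyme that starts the breakdown of branched-chain amino acids. The study had itself picked all of these filament genes but ifa-4 and ifd-2 from ageing samples that are not part of this series, as counterparts of a mammalian lamin gene and their predicted paralogs.

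Intermediate filaments are rope-like polymers of coiled-coil proteins that let cells withstand pulling and bending. In the worm epidermis, IFB-1 pairs with IFA proteins, and the filaments run between hemidesmosomes, the junctions that carry the pull of muscle through the epidermis to the cuticle. In the gut, IFB-2 and the IFC, IFD and IFP proteins build a dense sheath, the endotube, under the brush border that faces the lumen. The thin tube of the excretory canal also carries a filament coat, to which IFA-4, IFB-1 and IFC-2 belong. No library was made from a single tissue, so fewer cells of a type and less RNA per cell cannot be told apart in any of the values given here.

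Counted reads numbered 32784443 to 43274827 per control library and 38347771 to 44137496 per RNAi-labelled library. RNAi replicate 3 stood apart from the other RNAi-labelled libraries, with a chi-square over its degrees of freedom of 34.5 and 45.1 when gene counts were set against theirs, where the others of its group gave 10.03 and the control pairs 15.03 to 19.95. The targeted gene, bcat-1, stood at 144 ± 15.6 scaled CPM in the controls and at 204 ± 93.98 under RNAi by label (n = 3, SD, log2 0.50, edgeR adjusted p = 0.169), with 223, 102 and 287 in replicates 1 to 3. Replicate 2 lay below every control and the other RNAi-labelled libraries lay above them. The fall that the label implies is thus not visible in these counts, so every direction below refers to the labels only. The paper itself reports by quantitative PCR, after a shorter treatment, that the RNAi abolished bcat-1 expression. Scaled CPM are counts per 1e6 reads with library sizes corrected by TMM (trimmed mean of M values), and each log2 fold change is RNAi-labelled over control. A gene was called at an edgeR adjusted p under 0.05, where p-values were adjusted over all 16391 tested genes by the Benjamini-Hochberg method. The groups differed widely, with 61.6% of tested genes called, 36.0% higher and 25.6% lower, and a median log2 fold change of 0.15. Higher genes made up 58.5% of the calls, and 79.0% where reads were scaled by library size only. Markers of other states moved with the groups. The summed level of 10 moulting genes was 160.1 to 266 scaled CPM in the controls and 848 to 1096 in the RNAi-labelled libraries, and that of 9 germ line and oocyte genes was 11730.0 to 15326 and 5957 to 7760. Of the moulting genes 8 rose and 2, nhr-23 and lin-42, fell, and all 9 germ line and oocyte genes fell. Of 8 neuron markers 7 rose, and of 7 body wall muscle markers 4 rose and 2 fell. The part of these lists in the filament results was not tested.

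All 10 filament genes had reads in every library and passed the filter on low counts. In the RNAi-labelled libraries 7 were called higher, 0 were called lower, and 3 did not pass the test, against 36.0% of all tested genes called higher. All 10 log2 values were above 0, so none was lower at an unadjusted p under 0.05 either. At least 2-fold higher were 3 of the 10, ifa-3, ifp-1 and ifc-1, against 24.3% of all tested genes. In scaled CPM, control and RNAi-labelled values were fully apart for 7 members, all of them higher. Of all tested genes 71.2% had groups apart and 40.2% had them apart in that direction. The median log2 fold change was 0.47 over the members and 0.15 over all tested genes. Of the 6 members known from the gut, 5 rose, and of ifb-1 and the 3 ifa genes 2 rose. The number of members called fell to 4 without control replicate 2 and to 4 without RNAi replicate 1, and it was 5 with DESeq2, with its size factors or with no filter. Without RNAi replicate 3, the library that stood apart, it was 6, and the gene lost was ifa-1.

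**Figure D1:**
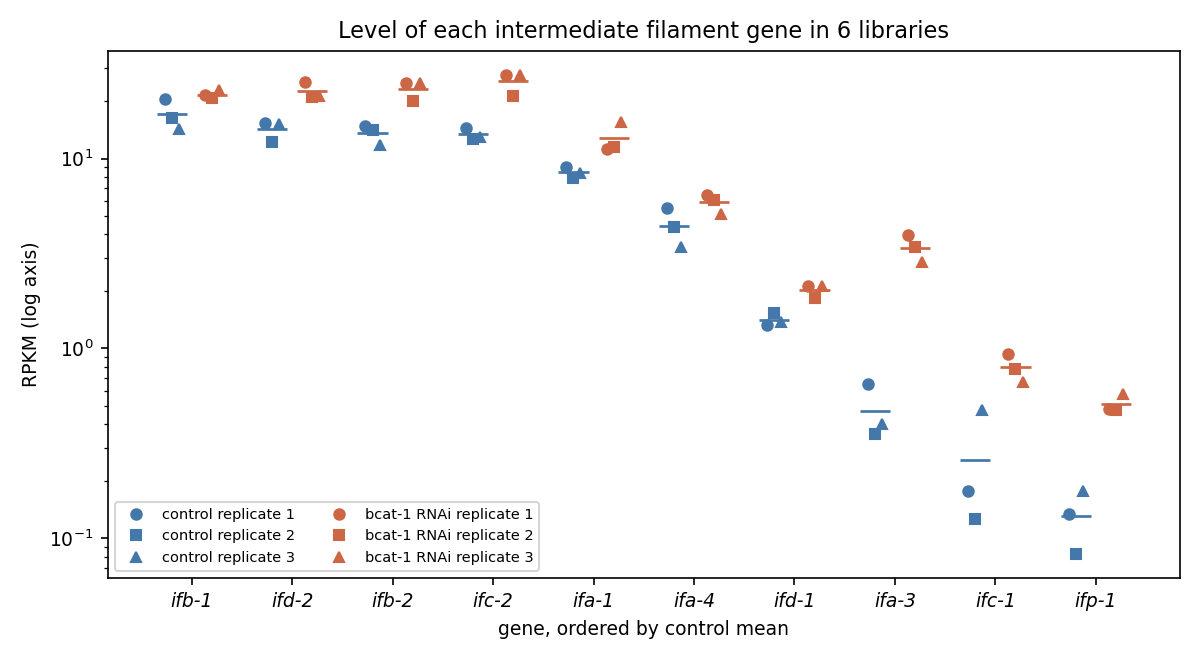
Deposited RPKM of each gene in each library, on a log axis, with the control libraries in blue, the RNAi-labelled libraries in orange, and a bar at each group mean. ifa-3, ifc-1 and ifp-1 are the weakest genes in the controls and show the widest gaps between the group means. For ifb-1 the means are 17.1 RPKM in the controls and 21.7 RPKM in the RNAi-labelled libraries. Its groups are narrowly apart on this scale, with a highest control of 20.7 and a lowest RNAi-labelled value of 20.8 RPKM. In scaled CPM they overlap.

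Levels of different genes were compared as RPKM, reads per kilobase of exon and per 1e6 counted reads, as deposited and without TMM scaling. In the controls ifb-1 stood highest at 17.1 ± 3.26 RPKM (SD, n = 3), followed by ifd-2 at 14.3 ± 1.82, ifb-2 at 13.6 ± 1.58 and ifc-2 at 13.4 ± 0.916 RPKM. Each of these overlapped its neighbour in the order, so their order in the controls is not fixed by these libraries. Clear steps led down to ifa-1 at 8.45 ± 0.532, ifa-4 at 4.41 ± 1.04, and ifd-1 at 1.42 ± 0.115 RPKM. The lowest were ifa-3 at 0.468 ± 0.160, ifc-1 at 0.259 ± 0.187 and ifp-1 at 0.132 ± 0.0476 RPKM, again with overlaps between neighbours. In the RNAi-labelled libraries the gut gene ifc-2 was first at 25.5 ± 3.51 RPKM while ifb-1 came after ifb-2 and ifd-2 at 21.7 ± 1.12 RPKM. These 4 still overlapped their neighbours. ifa-3 passed ifd-1, with 3.40 ± 0.550 against 2.03 ± 0.164 RPKM (SD, n = 3), and the values of these genes did not overlap in either group.

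IFB-1 is the partner that the IFA proteins need to polymerise, and its gene did not pass the test. ifb-1 (F10C1.2) lies on the plus strand of chromosome II from 5765618 to 5772084 in WBcel235, with 8 exons after merging its transcripts. Its level was 50.8, 42.6 and 34.9 scaled CPM in control replicates 1 to 3, and 46.9, 44.3 and 45.7 scaled CPM in RNAi-labelled replicates 1 to 3. The RNAi values lay inside the range of the controls. The log2 fold change was 0.09 with a standard error of 0.13 (edgeR adjusted p = 0.556). Its last 31 exon bases are shared with dmd-5 on the other strand, which the unstranded reads cannot separate.

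ifa-3 (F52E10.5), whose protein acts in the epidermis, had the largest rise of the family. It lies on the minus strand of chromosome X from 16267197 to 16270069, with 6 exons, inside the span of an antisense RNA gene, W10G6.5, with which it shares 0 exon bases. It had 56, 23 and 33 reads in the controls, replicates 1 to 3, and 322, 299 and 217 in RNAi-labelled replicates 1 to 3. Scaled, these were 1.39, 0.797 and 0.850 CPM in the controls and 7.48, 6.32 and 4.92 CPM in the RNAi-labelled libraries. The lowest RNAi library thus stood well above the highest control. The rise was 6.08-fold, a log2 value of 2.60 with a standard error of 0.26 (edgeR adjusted p = 5.78e-05), and the call held under all 18 alternatives. When tested genes were split by mean scaled CPM into 10 level bins of equal number, 53.3% of genes in the bin of ifa-3 were called higher, with a median log2 value of 0.61.

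The neighbour of ifa-3 on the same strand is mua-6 (W10G6.3), the gene of IFA-2, which links muscle attachment sites in the epidermis. It carries another symbol and is therefore not a member. The genes are 1510 bases apart. Its level was 13.7, 11.02 and 6.77 scaled CPM in control replicates 1 to 3, and 7.02, 8.01 and 5.89 scaled CPM in RNAi-labelled replicates 1 to 3. The groups overlapped through control replicate 3, and the log2 value of −0.59 with a standard error of 0.24 did not pass the test (edgeR adjusted p = 0.0600). It missed the test in 14 of 18 alternatives. With no library left out, it was called lower with DESeq2 (log2 −0.70, adjusted p = 0.00923). The same held with DESeq2's size factors (edgeR adjusted p = 0.0268) and with no filter (edgeR adjusted p = 0.0237). Its size also depended on single libraries. The log2 value was −0.84 without control replicate 3 (edgeR adjusted p = 0.00393), −0.36 without control replicate 1 (0.212), and −0.20 without control replicate 1 and RNAi replicate 3 (0.478). A ratio of genes within a library does not depend on how libraries are scaled. The ratio of ifa-3 to mua-6 RPKM was 0.0989, 0.0705 and 0.122 in the controls, replicates 1 to 3, and 1.04, 0.769 and 0.814 in RNAi-labelled replicates 1 to 3. It was 9.14-fold higher in the RNAi-labelled libraries (exact permutation test, two-sided, p = 0.1, the smallest that 3 against 3 can give, and 0.3 after adjustment over 6 ratios). The 6 pairs compared in this way, the other ones of which were ifb-2 to ifb-1, ifc-2 to ifb-2, ifa-1 to ifb-1, ifd-2 to ifd-1 and ifc-1 to ifc-2, were chosen after the data were seen. The ratios of ifa-1 to ifb-1 and of ifc-1 to ifc-2 overlapped between the groups (exact permutation test, p = 0.3, adjusted p = 0.36 for each).

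ifa-1 (F38B2.1), an IFA gene of the pharynx and other epithelia, lies on chromosome X from 11271182 to 11275498 on the plus strand, with 11 merged exons and 5 transcripts. It stood at 23.2, 21.7 and 21.6 scaled CPM in control replicates 1 to 3 and at 25.9, 25.9 and 32.6 scaled CPM in RNAi-labelled replicates 1 to 3. The groups did not overlap, and RNAi replicate 3 was the highest. The rise was small, 1.27-fold, with a log2 value of 0.34 and a standard error of 0.12 (edgeR adjusted p = 0.0367). It lost its call when any 1 of the 6 libraries was left out (edgeR adjusted p = 0.0504 to 0.104) and with DESeq2 (adjusted p = 0.203), although its log2 value stayed between 0.22 and 0.60 under all 18 alternatives. ifa-4 (K05B2.3), on chromosome X from 4912308 to 4915979 on the minus strand, encodes a filament protein of the excretory canal and shares 17 exon bases with K05B2.2 on the other strand. Its levels of 12.04, 10.2 and 7.44 scaled CPM in control replicates 1 to 3 overlapped those of 12.6, 11.6 and 9.09 scaled CPM in RNAi-labelled replicates 1 to 3. The log2 value was 0.17 with a standard error of 0.20 (edgeR adjusted p = 0.471). With control replicate 1 and RNAi replicate 3 both left out it was called higher (log2 0.50, edgeR adjusted p = 0.0427).

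Among the gut genes, ifc-2 and ifb-2 both rose and kept their calls under all 18 alternatives. ifc-2 (M6.1) encodes a filament protein of the gut and the excretory canal. It is the longest member, on chromosome X from 642156 to 654904 on the minus strand, with 24 merged exons and 7 transcripts. It rose from 75.5, 70.3 and 67.9 scaled CPM in control replicates 1 to 3 to 128.7, 97.8 and 116.4 scaled CPM in RNAi-labelled replicates 1 to 3. Every RNAi library was above every control. The log2 value was 0.68 with a standard error of 0.11 (edgeR adjusted p = 0.001002). Only 7.63% of the genes in its level bin, 80.8 to 151 scaled CPM, were called higher and 62.7% were called lower, with a median log2 value of −0.34.

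ifb-2 (F10C1.7), the gut counterpart of ifb-1, lies 11477 bases before it on the same strand of chromosome II, from 5750188 to 5754140, with 11 merged exons. It stood at 28.8, 29.0 and 22.8 scaled CPM in control replicates 1 to 3, and at 42.9, 34.0 and 39.1 scaled CPM in RNAi-labelled replicates 1 to 3. The groups were apart. The log2 value was 0.53 with a standard error of 0.13 (edgeR adjusted p = 0.00817). In RPKM, ifb-2 was below ifb-1 in every control library, with ratios of 0.718, 0.863 and 0.827, and the ratios were 1.16, 0.973 and 1.09 in RNAi-labelled replicates 1 to 3. The ratio was 1.34-fold higher in the RNAi-labelled libraries (exact permutation test, p = 0.1, adjusted p = 0.3). The ratio of ifc-2 to ifb-2 was 0.991 ± 0.105 in the controls and 1.09 ± 0.0250 in the RNAi-labelled libraries (SD, n = 3, exact permutation test, p = 0.3, adjusted p = 0.36), with overlapping groups.

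The IFD genes are also parts of the endotube and differed about 10-fold in level. ifd-2 (F25E2.4), on chromosome X from 813854 to 815929, rose from 25.04, 20.9 and 24.5 scaled CPM in control replicates 1 to 3 to 36.6, 29.8 and 28.0 scaled CPM in RNAi-labelled replicates 1 to 3. Its groups were apart, with a log2 value of 0.42 and a standard error of 0.13 (edgeR adjusted p = 0.0222). The call was lost without control replicate 2, RNAi replicate 1 or RNAi replicate 2 (edgeR adjusted p = 0.0895, 0.146 and 0.0627) and with DESeq2 (adjusted p = 0.109). ifd-1 (R04E5.10), on chromosome X from 8820703 to 8824448, had 106 to 120 reads in the controls and 170 to 182 in the RNAi-labelled libraries. Scaled, it stood at 2.97, 3.67 and 3.07 CPM in the controls and 4.23, 3.59 and 3.88 CPM in the RNAi-labelled libraries, where RNAi replicate 2 fell below control replicate 2. The log2 value of 0.27 with a standard error of 0.17 did not pass the test (edgeR adjusted p = 0.186). It passed where reads were scaled by library size only (log2 0.52, edgeR adjusted p = 0.0286). Within libraries, ifd-2 stood 10.2 ± 2.03 times as high as ifd-1 in the controls and 11.1 ± 1.03 times in the RNAi-labelled libraries (SD, n = 3, exact permutation test, p = 0.6, adjusted p = 0.6).

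The weakest gut genes rose most within the gut set. ifp-1 (C43C3.1), on chromosome X from 9675873 to 9680169, had 15, 7 and 19 reads in the controls, replicates 1 to 3, and 51, 54 and 57 in RNAi-labelled replicates 1 to 3. Scaled, that is 0.372, 0.243 and 0.489 CPM against 1.18, 1.14 and 1.29 CPM, and the groups were well apart. The rise was 3.19-fold, a log2 value of 1.67 with a standard error of 0.27 (edgeR adjusted p = 9.06e-04). ifc-1 (F37B4.2), on chromosome V from 2881393 to 2883753, is the other IFC gene. It had 13, 7 and 33 reads in the controls, replicates 1 to 3, and 65, 58 and 43 in RNAi-labelled replicates 1 to 3. Control replicate 3 stood apart from the other controls, at 0.850 scaled CPM against 0.322 and 0.243, and came close to RNAi replicate 3 at 0.975. The log2 value was 1.35 with a standard error of 0.41 (edgeR adjusted p = 0.0177), and without control replicate 3 it was 2.08 (edgeR adjusted p = 0.00121). The call was lost without control replicate 1, control replicate 2 or RNAi replicate 1 (edgeR adjusted p = 0.0637, 0.0749 and 0.0646). Counting error is large at such read numbers, and in their level bin 50.8% of all genes were called higher with a median log2 value of 0.83.

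**Figure D2:**
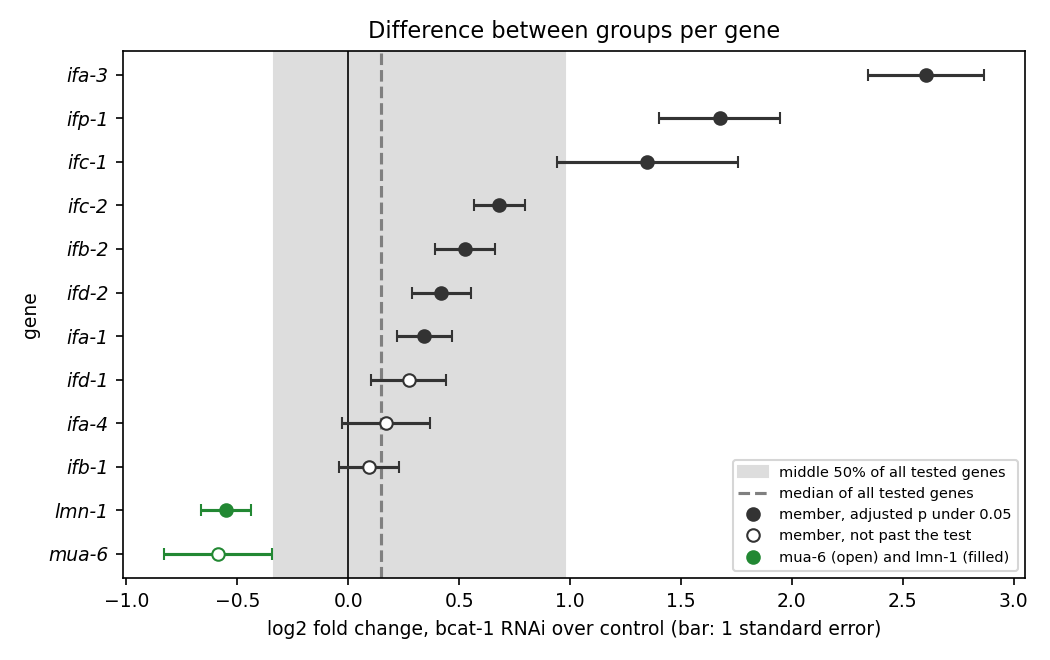
Log2 fold change of each member, with mua-6 and lmn-1 for comparison, and bars of 1 standard error. Filled points passed edgeR's test at an adjusted p under 0.05. Grey shading spans the 25th to the 75th percentile of all tested genes, −0.34 to 0.98, and ifa-3, ifp-1 and ifc-1 lie above it.

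The median fold change of all tested genes was higher for weak genes than for abundant ones. The bin of 21.0 to 44.3 scaled CPM holds 4 members, and 3 of them (ifa-1, ifb-2 and ifd-2, but not ifb-1) were called higher, where 27.5% of all genes were. Shares also differed between chromosomes. On X, where 7 of the 10 members lie, 50.6% of 2365 tested genes were called higher, with a median log2 value of 0.53, against 33.4% and 0.06 on the autosomes. Of the X-linked members 5 of 7 were called higher, and of the others 2 of 3. Members were not matched on level or chromosome, and these shares are a description only.

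**Figure D3:**
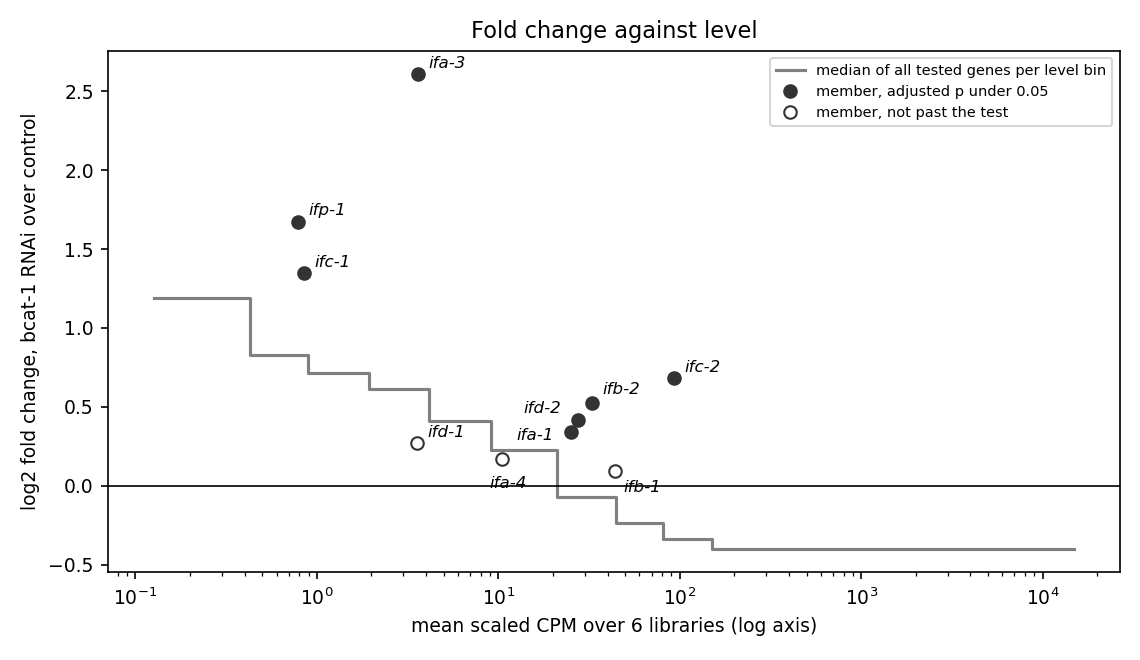
Log2 fold change of each member against its mean level over the 6 libraries, on a log axis, with the median of all tested genes in 10 bins of level as a grey line. ifd-1 and ifa-4 lie below the line, and the others above it, with ifa-3 at 2.60 over a bin median of 0.61 and ifc-2 at 0.68 over a bin median of −0.34.

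The summed RPKM of the family was 82.1, 69.8 and 68.6 in the controls, replicates 1 to 3, and 124.6, 107.6 and 123.5 in RNAi-labelled replicates 1 to 3, on the deposited scale with no TMM scaling. ifb-1 held 25.2%, 23.5% and 20.8% of the family's RPKM in the controls, and 17.3%, 19.3% and 18.6% in the RNAi-labelled libraries, so its share was lower in every RNAi library. The share of ifc-2 moved the other way, from 18.3 ± 0.737% to 21.5 ± 1.303% (SD, n = 3), with no overlap. ifa-3 went from 0.628 ± 0.148% to 2.88 ± 0.497% and ifp-1 from 0.180 ± 0.0718% to 0.431 ± 0.0408% (SD, n = 3), both without overlap. Shares of the remaining members overlapped between the groups. The 6 gut genes together held 58.7 ± 2.49% in the controls and 62.96 ± 2.16% in the RNAi-labelled libraries (SD, n = 3), and these ranges overlapped through control replicate 3 and RNAi replicate 2.

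**Figure D4:**
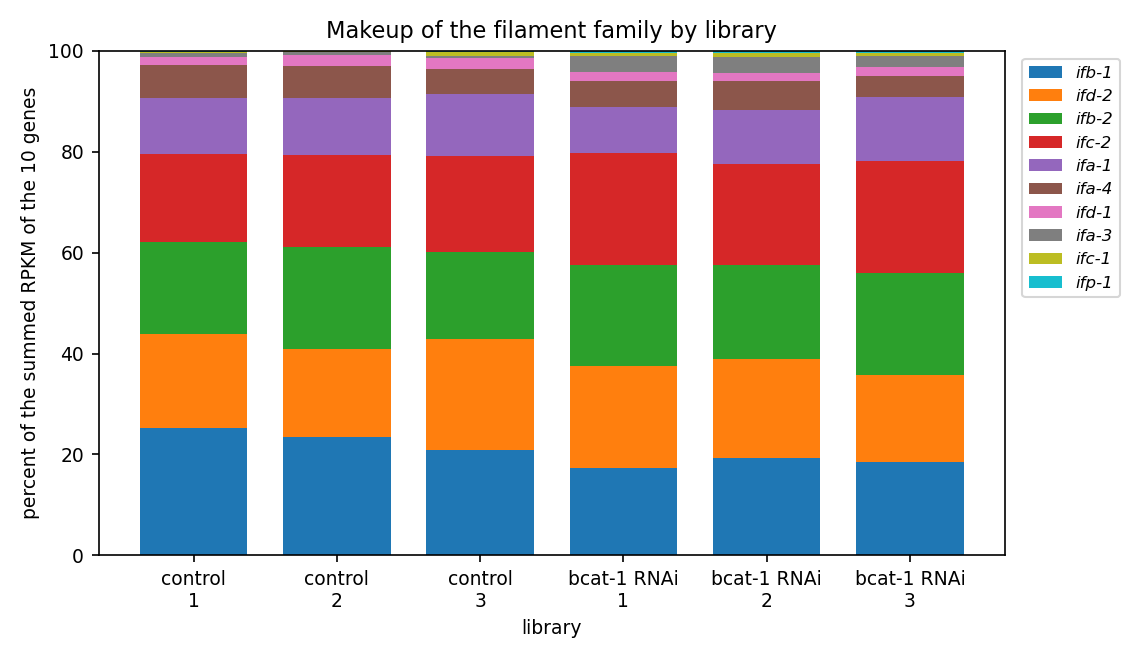
Percent of the summed RPKM of the 10 genes held by each gene, in stacked bars with 1 bar per library. The share of ifb-1, at the foot of each bar, is 20.8% to 25.2% in the controls and 17.3% to 19.3% in the RNAi-labelled libraries.

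Genes of the gut terminal web and of the apical junction moved in both directions. RNA came from whole animals, so the values of the junction genes cannot be assigned to the gut. Of 15 genes 7 rose and 5 fell while 3 missed the threshold, with a median log2 value of 0.23. Of all tested genes 36.0% were called higher and 25.6% lower. ifo-1, which organises the gut filaments and was named after its values were seen, stood at 41.4 ± 7.53 and 40.7 ± 4.83 scaled CPM (n = 3, SD, log2 −0.02, edgeR adjusted p = 0.890). The junction scaffold gene dlg-1 rose from 78.9 ± 26.4 to 376 ± 26.5 scaled CPM (n = 3, SD, log2 2.25, edgeR adjusted p = 3.62e-05), and its partner ajm-1 from 62.8 ± 10.6 to 188 ± 8.60 (log2 1.58). The largest falls were those of act-5, the actin of the brush border, from 128 ± 22.9 to 78.5 ± 17.1 scaled CPM (n = 3, SD, log2 −0.71, edgeR adjusted p = 0.00667), and of the polarity kinase pkc-3 (log2 −0.61). The kinase gene sma-5 (log2 1.18) and bbln-1 (log2 0.98), both needed for an even filament sheath in the gut and named after their values were seen, also rose. For gut markers outside the family 4 of 9 rose and 1, act-5, fell, but 1 rose without control replicate 1, control replicate 2, RNAi replicate 1 or RNAi replicate 2 and 2 rose without RNAi replicate 3. The falls were 2 without control replicate 2 or RNAi replicate 1, 3 with DESeq2 or its size factors, and 0 with limma on RPKM. Their summed level was 963 to 1374 scaled CPM in the controls and 1226 to 1391 in the RNAi-labelled libraries, so the groups overlapped. Its largest terms were cpr-1, at 441 ± 188 and 727 ± 75.9, and asp-1, at 410 ± 29.6 and 342 ± 67.1 scaled CPM (SD, n = 3). In control replicate 3 cpr-1 stood at 656 scaled CPM, against 361 and 305 in the other controls. The sum thus does not stand for the whole list. Both genes were named after their values were seen. The gut esterase gene ges-1, named after its values were seen, stood at 39.98 ± 5.74 and 39.7 ± 0.824 scaled CPM (SD, n = 3).

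Hemidesmosome genes, the partners of the epidermal filaments, lay in both directions by label. Of 10 genes 5 rose and 0 fell while 5 missed the threshold. Of all tested genes 36.0% were called higher and 25.6% lower. The median log2 value was 0.14 in the list and 0.15 over all tested genes. The genes that missed the threshold, mua-6, pat-12, git-1, pak-1 and pix-1, had log2 values from −0.59 to −0.05. Among them pat-12 (log2 −0.20) and git-1 (log2 −0.16) had groups apart. mua-3, a transmembrane protein that anchors filaments on the cuticle side, rose from 14.8 ± 3.52 to 88.2 ± 12.2 scaled CPM (n = 3, SD, log2 2.58, edgeR adjusted p = 9.82e-06). The spectraplakin vab-10, which links filaments to the junction, rose from 252 ± 31.3 to 564 ± 65.1 scaled CPM (n = 3, SD, log2 1.16, edgeR adjusted p = 9.66e-05). The other genes called were let-805 (log2 0.95), which encodes myotactin, mup-4 (log2 0.69) and vab-19 (log2 0.33). They, the genes that missed the threshold except mua-6, and the markers in the next sentence were named after their values were seen. Of 9 epidermal markers 7 rose and 0 fell, among them dpy-7 from 1.61 ± 0.734 to 27.6 ± 4.16 scaled CPM (SD, n = 3), while col-19 and lin-26 did not pass the test. Their values lay the other way with groups apart, at 43.3 ± 11.4 and 21.6 ± 13.02 scaled CPM for col-19 (n = 3, SD, log2 −1.01, edgeR adjusted p = 0.0779) and 213 ± 21.4 and 179.7 ± 13.98 for lin-26 (log2 −0.25, edgeR adjusted p = 0.0677). The count of epidermal markers that fell was 1 without control replicate 3 or RNAi replicate 3, 1 with DESeq2 and 2 with its size factors. The summed level of these markers was 484 to 576 scaled CPM in the controls and 806 to 877 in the RNAi-labelled libraries. However, vab-10, given above among the hemidesmosome genes, is also 1 of these markers. At 564 ± 65.1 scaled CPM it made up most of the sum in the RNAi-labelled libraries, so the higher sum does not stand for the whole list. Pharynx markers rose in 7 of 7 cases. However, 4 rose without control replicate 2, and 5 without control replicate 1 or RNAi replicate 3. With control replicate 1 and RNAi replicate 3 both left out, 3 rose. The sum of the pharynx markers was 70.9 to 127 scaled CPM in the controls and 140.3 to 175 in the RNAi-labelled libraries. The part of either list in the ifa results was not tested.

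In the excretory canal list 6 of 11 genes rose and 1 fell while 4 missed the threshold, with a median log2 value of 0.54. Of all tested genes 36.0% were called higher and 25.6% lower. Among those that missed it, exc-4, named after its values were seen, was lower with groups apart (log2 −0.49, edgeR adjusted p = 0.170). Its RNAi-labelled replicates 1 to 3 stood at 30.1, 32.4 and 12.2 scaled CPM. The RNA-binding protein gene exc-7 rose from 9.73 ± 0.782 to 36.0 ± 5.84 scaled CPM (n = 3, SD, log2 1.89, edgeR adjusted p = 1.68e-05) and the spectrin gene sma-1 from 321 ± 46.9 to 554 ± 17.4 scaled CPM (log2 0.79). The chloride channel clh-3 fell (log2 −0.66, edgeR adjusted p = 4.73e-04). The nuclear lamin lmn-1, a relative of the cytoplasmic filaments, was far more abundant than any member, at 203 ± 7.20 RPKM in the controls. It fell from 491 ± 21.5 to 335 ± 41.8 scaled CPM (n = 3, SD, log2 −0.55, edgeR adjusted p = 0.00299), and the call held under all 18 alternatives. Of 8 lamina and envelope genes 3 rose and 5 fell, and those that fell were 3 without control replicate 2 or RNAi replicate 1. Those that rose as reported were anc-1 (log2 1.26), unc-83 (log2 0.94) and unc-84, which tie the nucleus to the cytoskeleton. The inner membrane protein gene lem-2 had the largest fall as reported (log2 −0.77, edgeR adjusted p = 0.0239), with 109.9, 106.1 and 50.2 scaled CPM in RNAi-labelled replicates 1 to 3. Without RNAi replicate 3 its log2 value was −0.46 (edgeR adjusted p = 0.00117), and it lost its call in 6 of 18 alternatives, 1 of them without control replicate 2 (edgeR adjusted p = 0.0969).

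Profiles like those of the partner genes were sought among 8013 genes with a mean of at least 10 scaled CPM, by the root mean square distance between log2 values centred over the 6 libraries. Nearest to ifb-1 were lec-4, C27H2.2 and cal-5, at distances of 0.0621, 0.0686 and 0.0748. Nearest to ifb-2 were F55F10.1, him-4 and Y37D8A.6, at 0.0782, 0.0834 and 0.0851. him-4 encodes hemicentin, a matrix protein of epithelial attachments. No other member was among these genes, but lists of 3 cannot show whether members share profiles. ifa-3, ifc-1, ifd-1 and ifp-1 were too weak to be candidates.

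**Figure D5:**
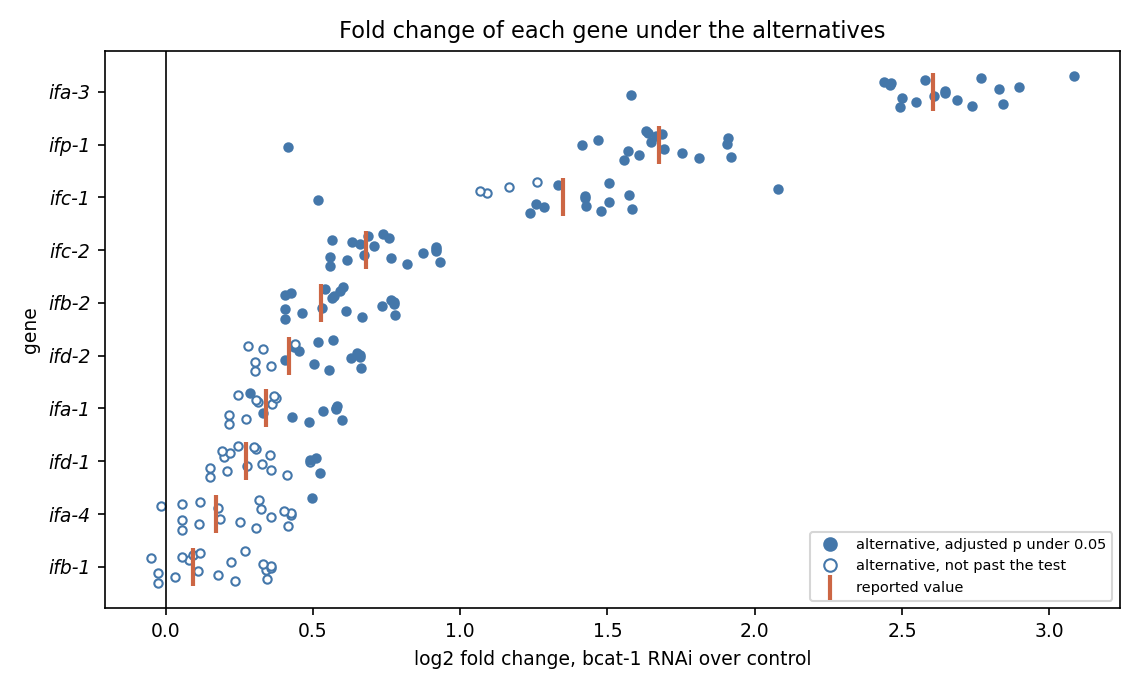
Log2 fold change of each gene under the reported settings, as an orange bar, and under each alternative, as a point that is filled where the adjusted p was under 0.05. ifa-3, ifc-2, ifb-2 and ifp-1 are filled throughout, and ifb-1 nowhere, with values from −0.05 to 0.36.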

How the data were processed

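RNA from 6 libraries was extracted with QIAzol and prepared with a TruSeq kit, which does not record strand. The authors mapped reads with TopHat2 2.0.6 to WBcel235, and reads with a single mapping were counted per gene by featureCounts. The sources used here give neither its version nor its strand setting. These counts were deposited without normalisation. The authors also deposited RPKM, made from the same counts, and for 100% of genes with reads these imply an exon length that is a whole number to within 0.001 base. Reads shared by near-identical copies are lost in unique mapping.

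Counts were filtered with filterByExpr, scaled by TMM and tested with edgeR 4.0.16 (quasi-likelihood, two-sided, group only) in R 4.3.3. Alternatives used DESeq2 1.42.0, limma 3.58.1 on RPKM and with voom, other scalings and filters, and libraries left out. The fit was also run on simulated counts with known changes in a small part of the genes. That run cannot speak to the scaling, because most tested genes were called in these data. Libraries of a group differed beyond sampling noise (chi-square per degree of freedom of 10.03 to 45.1). Labels do not say that libraries came from separate cultures, so p-values cover the spread among these samples alone, and that spread may be technical. Replicates were numbered in accession order. The members, gene lists and tests were chosen with earlier results of these data known. Named were all members, mua-6, lmn-1, bcat-1, up to 2 called genes per direction in each partner list whose groups did not overlap and reached 1 CPM, and the 3 profiles nearest to ifb-1 and ifb-2. Positions and overlaps came from Ensembl release 115 on WBcel235, and newer symbols were matched by RefSeq locus tag. Level bins were 10 bins of equal gene number by mean CPM.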

Additional observations from a re-analysis of the deposited data

How the results depend on the processing

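Over the 18 alternatives 4 to 8 members were called higher and 0 were called lower. Leaving out 1 library gave 4 to 6, with 4 without control replicate 2 and 4 without bcat-1 RNAi replicate 1. ifa-3, ifb-2 and ifc-2 were called in 18 of 18 alternatives and ifp-1 in 17 of 17, since 1 RPKM filter removed it. ifc-1 was called in 14, ifd-2 in 12 and ifa-1 in 9. Of the members not called, ifd-1 was called in 3, ifa-4 in 1 and ifb-1 in 0. A log2 value changed sign for ifb-1 in 3 and for ifa-4 in 1, with no call. The pseudocount of 1 RPKM brought the values of the weakest genes down, to 0.42 for ifp-1, 0.52 for ifc-1 and 1.58 for ifa-3. Scaling moved the median log2 value of tested genes from 0.15 to 0.02 (DESeq2's size factors), 0.28 (upper quartile) or 0.40 (library size only). Of all calls 58.5% were higher as reported, 69.3% by upper quartile, 79.0% by library size and 82.99% by limma on log2(RPKM + 1), and calls lower went from 4189 to 1947 by library size and 1525 by limma. TMM from genes above the median level, added after the data were seen, called 8 members. Of the partner lists, the 5 falls in the terminal web list were 3 with library size only and 1 with limma on log2(RPKM + 1), the 5 in the lamina list were 2 in both, and the hemidesmosome list had 2 falls with DESeq2's size factors and 1 without control replicate 3. The falls in the moulting list were 1 without any one library except bcat-1 RNAi replicate 2, and those in the muscle list were 1 without control replicate 1, control replicate 2 or bcat-1 RNAi replicate 2. No paired analysis was possible because the groups share no replicate number in the labels, and the running library numbers in the titles are not said to mark pairs. Depth limits ifp-1 and ifc-1, which had as few as 7 reads in a library.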
